A study of Mus musculus with 2 samples.

Results

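The genes described here are 10 genes of microglia and macrophages, Csf1r, Cx3cr1, Aif1, C1qa, C1qb, C1qc, Tyrobp, Trem2, Mrc1 and P2ry12. They were chosen by name out of 43346 Ensembl genes, without a filter on their values but with earlier results of these data known. The tissue was hindbrain, dissected from B6NCrl mouse embryos at an age of 11.5 days. Both libraries belonged to 1 group, with no treatment or mutation in the labels: pool 1 combined 109 healthy embryos of either sex and pool 2 combined 88. The input per library was 10 ng of RNA of more than 200 nt, and ERCC spike-ins, synthetic RNAs of known sequence, were added. Depth was 45340440 expected counts in pool 1 and 41261544 in pool 2, and spike-ins took 16.2% and 22.2% of TPM. The larger spike-in share leaves less TPM for the genes of pool 2 in the values as deposited. TPM is a level scaled for transcript length and for library size, so it can be compared between genes. The study has no second condition, so the comparisons are between genes and between the pools, and with 1 library per pool a difference between them has no replicate check.

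Microglia are the resident macrophages of the brain. They descend from yolk sac progenitors that enter the neural tube early in development, and they live beside the macrophages of the meninges and vessels, which share most of their genes. Csf1r is the growth factor receptor on which these cells depend. C1q starts the classical complement cascade and also tags debris and synapses for uptake, and Trem2 passes signals from lipids and dying cells through the adaptor Tyrobp.

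Promoter sequences were matched by symbol to RefSeq on GRCm38.p6, which gave 7 of the 10 genes (Mrc1, P2ry12, C1qb, C1qc, Cx3cr1, Aif1 and Trem2). The 250 bases before the RefSeq start are printed for C1qb and Trem2, the genes with the highest and the lowest level, for Cx3cr1, which stood furthest apart between the pools, and for P2ry12, whose reads were mostly given to a transcript that starts elsewhere. Each runs 5′ to 3′ on the gene's strand. Capitals mark matches on either strand to GAGGAA, a core of sites bound by Spi1 (PU.1), to TGTGGT, a core of Runx1 sites, or to TGCTGA, part of Maf sites; no matches overlap each other here.
C1qb, chr4:136886201-136886450, minus strand: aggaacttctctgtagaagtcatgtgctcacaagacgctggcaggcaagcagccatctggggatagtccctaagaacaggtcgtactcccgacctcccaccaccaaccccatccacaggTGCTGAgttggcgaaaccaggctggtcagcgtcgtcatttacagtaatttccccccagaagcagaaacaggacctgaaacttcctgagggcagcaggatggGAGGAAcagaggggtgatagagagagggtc
Trem2, chr17:48346151-48346400, plus strand: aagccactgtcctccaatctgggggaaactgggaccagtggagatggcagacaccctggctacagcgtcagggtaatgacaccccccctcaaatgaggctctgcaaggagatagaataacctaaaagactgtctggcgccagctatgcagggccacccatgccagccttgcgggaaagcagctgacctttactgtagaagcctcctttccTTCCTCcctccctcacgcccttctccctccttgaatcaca
Cx3cr1, chr9:120068297-120068546, minus strand: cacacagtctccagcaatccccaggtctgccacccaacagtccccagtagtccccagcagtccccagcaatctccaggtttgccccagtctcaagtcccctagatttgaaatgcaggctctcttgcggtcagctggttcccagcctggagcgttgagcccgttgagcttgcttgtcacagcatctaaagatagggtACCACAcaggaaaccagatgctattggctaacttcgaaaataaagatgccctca
P2ry12, chr3:59262986-59263235, minus strand: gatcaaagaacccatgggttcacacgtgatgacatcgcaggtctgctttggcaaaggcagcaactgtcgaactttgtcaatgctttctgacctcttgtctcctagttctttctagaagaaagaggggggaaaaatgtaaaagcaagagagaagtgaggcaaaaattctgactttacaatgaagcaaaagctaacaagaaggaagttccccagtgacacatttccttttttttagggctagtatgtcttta

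GAGGAA was found before 5 of the 7 genes, namely C1qb, C1qc, Trem2, Aif1 and Mrc1 (with 3 matches), and in 23.3% of the 32851 RefSeq windows of the same length. TGTGGT was found before C1qc and Cx3cr1 and in 14.0% of all windows. C1qb alone among the 7 held TGCTGA, which 16.1% of all windows held. P2ry12 held none of the 3 strings. The Aif1 window lies before a start to which few reads were assigned. Transcripts starting within 200 bases of that start held 0% and 0.84% of Aif1 TPM in pools 1 and 2. The deposited interval of Aif1-206, which starts near it, ran up to 1.46 and 1.77 TPM, so the use of this start was not settled. These are matches of letters, not bound sites.

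In each pool all 10 genes reached 1 TPM, called detected here, as did 33.0% of all Ensembl genes and 59.4% of protein-coding nuclear genes. Their TPM, not corrected for the spike-in share, summed to 93.0 in pool 1 and 91.0 in pool 2 (mean 92.0 ± 1.39, SD, n = 2). They held 3975 and 3968 expected counts, which is 0.00947% and 0.0108% of all counts on Ensembl genes. In bulk tissue, fewer cells of a type and less RNA per cell cannot be told apart.

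The C1q genes, which encode the 3 chains of one protein, made up most of this sum. C1qb stood at 25.9 TPM in pool 1 and 27.7 in pool 2 (754 and 775 reads). C1qc stood at 13.3 and 13.2 TPM (433 and 413 reads). C1qa stood at 11.5 and 9.82 TPM (317 and 261 reads). Together the chains took 54.6% and 55.8% of the summed TPM of the 10 genes (55.2 ± 0.893%, SD, n = 2).

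The chains are built into the protein in equal numbers, but their transcripts were not at equal levels. C1qb exceeded C1qa 2.26-fold in pool 1 and 2.82-fold in pool 2 on the TPM scale, and exceeded C1qc 1.94-fold and 2.09-fold. The deposited interval of C1qb lay wholly above those of C1qa and C1qc in each pool. C1qc exceeded C1qa 1.17-fold and 1.35-fold; in pool 1 their intervals overlapped (11.9 to 14.4 against 10.0 to 12.5 TPM), in pool 2 they did not (11.8 to 14.3 against 8.50 to 10.8). The 3 genes lie side by side on the minus strand of chromosome 4, within 18675 bases (136880129 to 136898803, GRCm38), with gaps of 3616 bases between C1qb and C1qc and 2851 between C1qc and C1qa, and the annotation places no other gene there.

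Tyrobp, the adaptor (also called DAP12; chromosome 7, 30413760 to 30417585), stood at 17.3 TPM in pool 1 and 13.1 in pool 2 (237 and 172 reads). Its receptor Trem2 (chromosome 17, 48346401 to 48354147) stood at 2.74 and 2.06 TPM (87 and 71 reads). Both were nominally lower in pool 2, and the excess of adaptor over receptor was nearly equal in the pools, 6.32-fold and 6.35-fold. Tyrobp also serves other receptors. Fcer1g, the related adaptor of Fc receptors, was at 16.7 and 18.0 TPM. Tyrobp stood at 1.04 times its level in pool 1, with overlapping intervals, and at 0.729 times in pool 2, with intervals apart (11.0 to 14.8 against 15.9 to 20.0 TPM).

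Csf1r (chromosome 18, 61100598 to 61132149) stood at 7.26 TPM in pool 1 and 6.76 in pool 2, from 967 and 879 reads, the most reads of the 10 genes. Its deposited intervals overlapped between the pools (6.68 to 7.62 and 6.21 to 7.11). Exons of Hmgxb3 on the opposite strand overlap those of Csf1r, and Hmgxb3 itself stood at 8.32 and 8.0 TPM, so reads in the overlap may belong to either gene.

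Cx3cr1, the receptor for the neuronal chemokine fractalkine (chromosome 9, 119901616 to 120069879), stood at 3.20 TPM in pool 1 and 4.96 in pool 2 (302 and 457 reads). P2ry12, the ADP receptor that steers microglial processes towards injury (chromosome 3, 59216272 to 59262871), stood at 2.76 and 2.65 TPM (164 and 154 reads). The pools thus stood apart for Cx3cr1, whose intervals did not meet (2.78 to 3.51 and 4.39 to 5.33), while those of P2ry12 overlapped (2.32 to 3.15 and 2.21 to 3.05). Exons of Med12l, at 2.93 and 3.09 TPM, overlap P2ry12 on the opposite strand, and exons of Gm33858, whose level was not analysed here, overlap Cx3cr1 in the same way.

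Aif1, the calcium- and actin-binding protein known as Iba1 (chromosome 17, 35170991 to 35176068), stood at 4.64 TPM in pool 1 and 5.96 in pool 2. With 83 and 96 reads it was, beside Trem2, the least covered of the 10 genes, and its intervals overlapped (3.74 to 6.23 and 4.78 to 7.71). Mrc1, the mannose receptor CD206 of macrophages at brain borders and of some endothelial cells (chromosome 2, 14229392 to 14332057), stood at 4.32 and 4.73 TPM (631 and 690 reads). Mrc1 exceeded P2ry12 1.57-fold and 1.78-fold, with intervals apart in each pool.

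**Figure D1:**
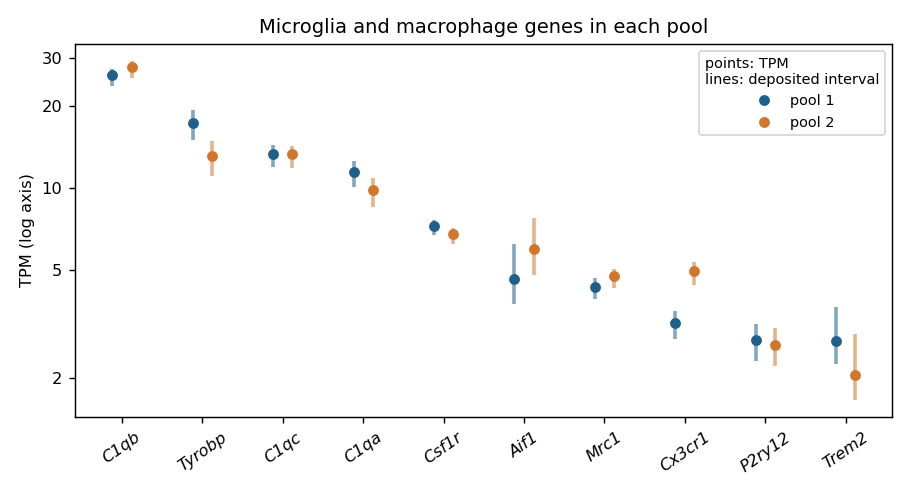
TPM (log axis) of the 10 genes in pool 1 (blue) and pool 2 (orange), ordered by mean level, with lines for the interval deposited with each value. C1qb (25.9 and 27.7 TPM) is highest and Trem2 (2.74 and 2.06) lowest in both pools, and only the lines of Cx3cr1 and, narrowly, Tyrobp do not meet. With pool 2 scaled to the median gene, as described below, those of Tyrobp met and those of Cx3cr1 and C1qb did not.

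In both pools the order ran from C1qb at the top to P2ry12 and then Trem2 at the bottom, a range of 9.46-fold in pool 1 and 13.5-fold in pool 2. Within it many neighbours could not be ranked: the intervals of 4 of 9 neighbouring pairs overlapped in pool 1 and of 5 of 9 in pool 2. P2ry12 and Trem2 overlapped in both. Tyrobp ranked above C1qc with intervals apart in pool 1 (17.3 against 13.3 TPM) and level with it in pool 2 (13.1 against 13.2). Cx3cr1 ranked below Mrc1 with intervals apart in pool 1 (3.20 against 4.32) and overlapped it in pool 2 (4.96 against 4.73). Set among detected protein-coding nuclear genes, C1qb exceeded 59.8% of them in pool 1 and 63.9% in pool 2, Csf1r 27.2% and 26.6%, and Trem2 10.2% and 7.05%.

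The pools differed little in these genes. For the median gene the log2 ratio of (TPM + 1), pool 2 over pool 1, was -0.11, and ratios are given relative to it. The median over the 10 genes was 0.08, against 0 by construction over the 14942 genes that averaged 1 TPM or more, whose middle 50% lay between -0.13 and 0.17. Relative to the median gene 7 members were higher in pool 2 and 3 lower, from -0.27 for Tyrobp to 0.61 for Cx3cr1. Over the 14942 genes this division is even by construction. Their median ratio itself fell with level, from 0.10 at a mean of 2 to 3 TPM to 0.05 at 5 to 8 and -0.02 at 20 to 30. P2ry12 (0.07) and Csf1r (0.02), counted as higher, thus lay below the median of genes of their level.

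Cx3cr1 was the member past 1.5-fold, 1 of 10, where 5.98% of the 14942 genes were past it in either direction, 4.35% towards pool 2 and 1.63% towards pool 1. Over the 7568 genes within the range of mean TPM of the 10 genes the share was 5.75%. Its relative fold was 1.53, close to the threshold, and without the centring its log2 ratio was 0.50, which is under it. Among the 1334 genes with a mean TPM of 3 to 5 the relative log2 ratio ran up to 0.73 at the 95th percentile, so 0.61 lay inside the usual spread at that level. As a share of the counts on Ensembl genes Cx3cr1 was 1.72-fold higher in pool 2, with an exact 95% interval of 1.49 to 2.00 that covers counting error only.

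Next came Aif1, with a relative log2 ratio of 0.41 and a count ratio of 1.32 (exact 95% interval 0.972 to 1.79, counting error only), then Mrc1 at 0.22 (1.25, 1.12 to 1.39) and C1qb at 0.20 (1.17, 1.06 to 1.30). Those of P2ry12 (0.07), C1qc (0.10), Csf1r (0.02), C1qa (-0.09) and Trem2 (-0.18) were smaller, and their count intervals included 1. Tyrobp was at -0.27, with a count ratio of 0.827 (0.676 to 1.01). Count intervals thus left out 1 for 3 of the 10 genes, all towards pool 2, where they left out 1 for 52.7% of the 14942 genes, 25.7% towards pool 2 and 27.0% towards pool 1. With the pool 2 intervals scaled to the median gene, the deposited TPM intervals were apart for 2 members, Cx3cr1 and C1qb, both towards pool 2, where 31.1% of the 14942 genes were apart in either direction 13.8% towards pool 2 and 17.3% towards pool 1. As deposited they were apart for Cx3cr1 and, towards pool 1, Tyrobp (15.0 to 19.3 and 11.0 to 14.8), where 40.4% of genes were apart, 7.87% towards pool 2 and 32.5% towards pool 1, and 33.2% of the genes within the members' range of mean TPM. The values as deposited are not corrected for the larger spike-in share of pool 2. With the scaling the pool 2 interval of Tyrobp was 11.9 to 16.0 and overlapped that of pool 1.

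**Figure D2:**
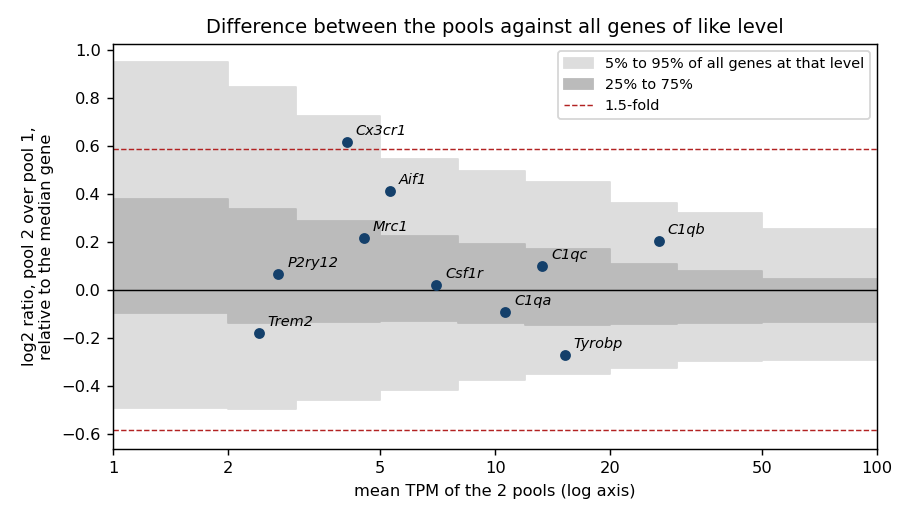
Log2 ratio of pool 2 over pool 1 relative to the median gene (vertical axis) against mean TPM (log axis) for the 10 genes, over grey bands that hold 25% to 75% and 5% to 95% of all genes of that level. Cx3cr1 (0.61) lies past the dashed 1.5-fold line and inside the wider band, as do the other 9 genes.

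At the transcript level the tables listed 24 transcripts of the 10 genes. C1qa, C1qb and Tyrobp had 1 each, and of the 2 of C1qc all reads went to C1qc-201. Mrc1-201, the full coding transcript, held 90.7% of the gene's TPM in pool 1 and 96.6% in pool 2, and a retained-intron transcript held the rest. Csf1r-202 held 91.2% and 100% of Csf1r.

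Reads of Cx3cr1, Trem2 and P2ry12 were divided among more than 1 transcript in both pools. Cx3cr1-202 held 73.8% and 64.1% of Cx3cr1, and Cx3cr1-201 the rest; in vM21 their starts lie 13 bases apart. The TPM of Cx3cr1-202 was 2.36 in pool 1 and 3.18 in pool 2, and that of Cx3cr1-201 was 0.84 and 1.78, so each transcript was higher in pool 2, though the intervals of each overlapped between the pools. Trem2-201 held 75.9% and 62.9% of Trem2, a second coding transcript, Trem2-202, held 21.5% and 30.7%, and a retained-intron transcript 2.55% and 6.34%, from 10.1 and 17.8 reads. P2ry12-202 held 93.5% and 78.2% of P2ry12. Its annotated start lies 42726 bases downstream of the RefSeq start whose promoter is printed above, and P2ry12-201, which starts 154 bases from it in vM21, held 6.52% and 21.8%, from 12.1 and 36.5 reads. The vM21 lengths of P2ry12-201 and Cx3cr1-201 differ from the deposited ones, so their starts in M4 may differ.

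Aif1 was not resolved. Aif1-203 took 64.7% of the gene in pool 1 and 0% in pool 2, Aif1-201 took 0% and 53.1%, and the retained-intron Aif1-205 took 35.3% and 46.1%. Aif1-203 and Aif1-201 are 842 and 847 nt long, and the deposited intervals of both ran from near 0 to above 2 TPM in each pool and overlapped between the pools. The deposited levels themselves, 3.0 TPM for Aif1-203 in pool 1 and 3.16 for Aif1-201 in pool 2, lay above their own intervals (upper bounds 2.52 and 2.75). The RefSeq start of Aif1 lies near the transcripts Aif1-202, Aif1-206 and Aif1-207, which together held 0% and 0.84%.

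**Figure D3:**
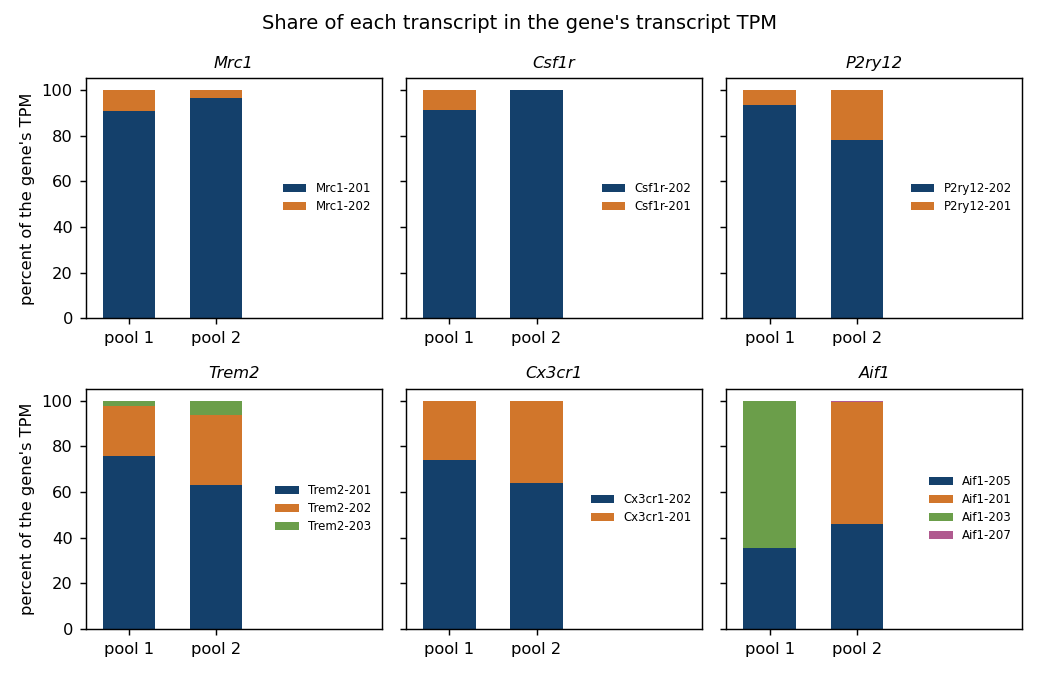
Percent of each gene's transcript TPM held by each annotated transcript, in pool 1 and pool 2, for 6 of the 7 genes with more than 1 transcript (C1qc, all in 1 transcript, is left out). Mrc1, Csf1r, P2ry12, Trem2 and Cx3cr1 are each led by the same transcript in both pools, while for Aif1 the green and orange transcripts exchange places between the pools.

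The other genes of the same cells and pathways were read from 8 lists of 108 distinct genes, of which 71 were detected, that is, reached 1 TPM in each pool. Over all Ensembl genes 33.0% were detected, and over protein-coding nuclear genes 59.4%. The counts detected in each list below are to be read beside these shares. Of the 74 that averaged 1 TPM or more, 3 were over 1.5-fold apart relative to the median gene, beside the 5.98% of all genes: Runx1 (0.96 and 1.85 TPM) and Folr2 (0.73 and 1.62) towards pool 2, and Gas6 (7.24 and 4.04) towards pool 1. Their median relative log2 ratio was 0.04.

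Of the ligands and growth factors of the receptors, 4 of 8 were detected. Apoe, a lipid carrier that binds Trem2, stood at 144 and 149 TPM and is also made by radial glia. Tgfb2 (18.0 and 16.8 TPM) and Cx3cl1, the fractalkine that Cx3cr1 binds (5.21 and 5.94), followed. Cx3cl1 exceeded its receptor 1.63-fold in pool 1, with intervals apart. In pool 2 it stood at 1.20 times the receptor, with overlapping intervals (5.26 to 7.41 against 4.39 to 5.33 TPM). Csf1, a ligand of Csf1r, was at 4.49 and 3.60 TPM, below the receptor by 1.62-fold and 1.88-fold. Il34, the other ligand of Csf1r, was at 1.06 and 0.13 TPM, from 26 and 6 reads. Its deposited intervals overlapped (0.779 to 1.95 and 0.164 to 0.933 TPM), and the pool 2 level lay below its own interval. The count ratio was 0.263 (exact 95% interval 0.0885 to 0.653, counting error only). Csf2 had 0 reads in either pool, a count that leaves room for up to 3 reads per library.

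Transcription factors of the myeloid lineage were mostly detected (13 of 15). Spi1, on which macrophage development depends, stood at 1.96 and 2.05 TPM, and Irf8 at 2.97 and 2.74. Id2 (286 and 259 TPM), Mef2a (20.0 and 18.5) and Sall1 (14.2 and 14.4) were highest, and all are made by neural cells too. Cebpa (0.38 and 0.28) was lowest.

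Of the complement components and regulators beyond C1q, 6 of 14 genes were detected. The proteases that form the C1 complex with C1q were low, with C1ra at 0.06 and 0.15 TPM and C1s1 at 0.22 and 0.59. C3 was at 0.61 and 0.25, and C4b had 0 reads in both pools. The regulators Cr1l (33.5 and 34.6) and Serping1, the C1 inhibitor (28.5 and 31.7), were highest, ahead of Cd93 (4.64 and 5.15). The levels of both protease genes thus stayed below 1 TPM in each pool. The lowest level of a C1q chain was 9.82 TPM, that of C1qa in pool 2. The deposited interval of C1s1 ran up to 1.03 and 1.61 TPM, and that of C1qa down to 10.0 and 8.50.

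Of 16 partners in Trem2 and Tyrobp signalling 7 were detected. The kinases Lyn (8.74 and 8.72 TPM) and Syk (3.01 and 3.03) and the phosphatase Inpp5d (3.0 and 2.5) were highest. Hcst, a sister adaptor of Tyrobp, was at 0.30 and 0.21 TPM from 3 and 2 reads, while Sirpb1a had 0 reads.

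Microglia signature genes had a median of 7.29 ± 0.198 TPM (n = 2), with 11 of 15 detected. Cst3 (277 and 263 TPM), Adgrg1 (89.6 and 72.5) and Tgfbr1 (84.1 and 61.7) were highest, but neural progenitors or many other cells make them. Fcrls, a gene of microglia in the mouse, stood at 7.43 and 7.15 TPM, Gpr34 at 2.22 and 2.32, P2ry13 at 0.79 and 0.96, Siglech at 0.65 and 0.72, and Selplg, the lowest, at 0.41 and 0.34.

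Border and yolk sac macrophage genes had a median of 1.27 ± 0.0212 TPM (n = 2), with 8 of 15 detected. Pf4 (53.8 and 57.4 TPM), Dab2 (44.3 and 48.2) and Stab1 (18.9 and 18.0) were highest, and F13a1 stood at 9.15 and 8.65. Lyve1 was at 1.64 and 1.82. Cd163 had 6 and 0 reads, Timd4 2 and 6, and Cd209f had 0 in both.

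Among pan-myeloid genes 11 of 15 were detected, with a median of 5.96 ± 0.198 TPM (n = 2), close to the 6.16 ± 0.290 of the 10 genes. Coro1a (36.1 and 31.2), Laptm5 (17.2 and 21.4) and Lcp1 (19.7 and 17.3) were highest. Adgre1, which encodes F4/80, stood at 3.41 and 2.06, Ptprc, which encodes CD45, at 1.25 and 1.5, and Itgam, which encodes CD11b, at 0.34 and 0.31, the lowest. General myeloid markers were thus present. Whether Itgam was below 1 TPM is not settled. Its levels lay under their own deposited intervals, 0.373 to 1.17 and 0.354 to 1.18 TPM, and these reach past 1 TPM. Bulk libraries do not separate microglia from the other macrophages in the dissected tissue.

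**Figure D4:**
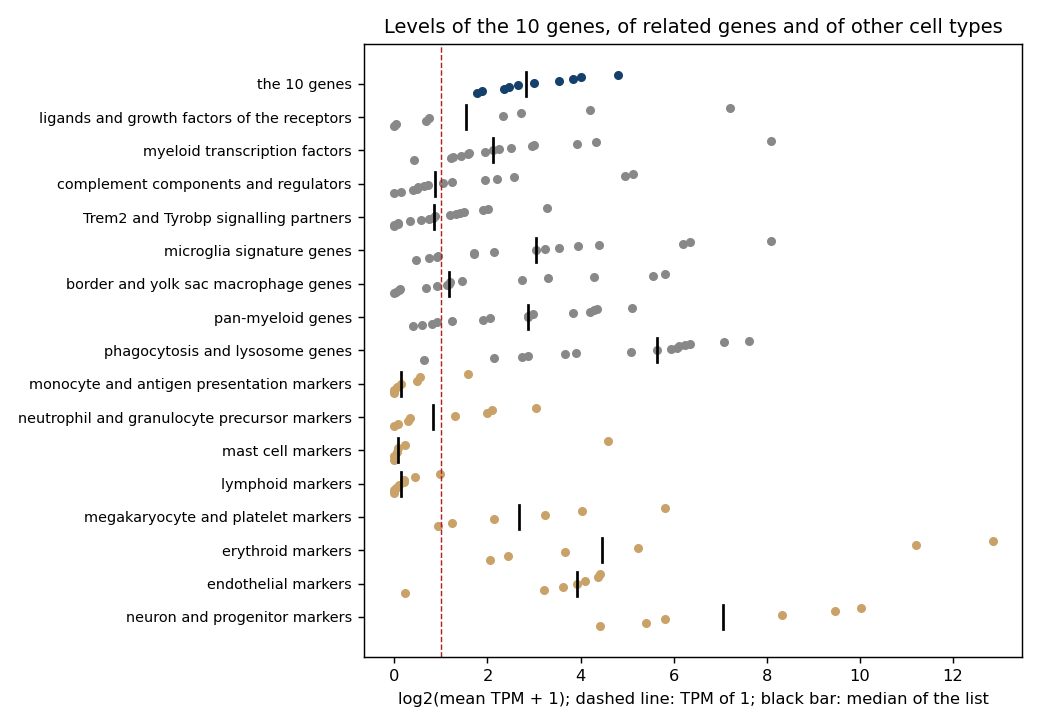
Level of each gene as log2(mean TPM + 1), 1 point per gene, for the 10 genes (blue), the 8 related lists (grey) and 8 lists of other cell types (tan), with a black bar at each list's median. The 10 genes all lie right of the dashed line at a TPM of 1, and most monocyte, mast cell and lymphoid markers lie left of it.

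Other blood cells could add to some of the same genes. Lymphoid markers summed to 1.28 and 2.19 TPM over 8 genes with 0 detected (Cd79b 0.68 and 1.29, Rag1 0.30 and 0.40, Cd79a 0.05 and 0.26, and Cd3e at 0 reads). Monocyte and antigen presentation markers summed to 3.44 and 2.55 over 7 genes with 1 detected, H2-Ab1 (2.35 and 1.62); Cd74 was at 0.63 and 0.28, Ccr2 at 0.35 and 0.46, and Itgax and H2-Aa had 0 reads. Of 6 mast cell markers only Kit, which neural and other cells also make, was detected (25.7 and 20.2), while Cpa3 was at 0.23 and 0.13, Ms4a2 at 0.12 and 0, and Tpsb2 had 0 reads.

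The 8 granulocyte precursor markers summed to 19.3 and 11.6 TPM, led by Prtn3 (7.91 and 6.5), S100a8 (4.06 and 2.54) and Mpo (4.02 and 1.90), with 3 of 8 detected and Ly6g at 0 reads. Of the 4 that averaged 1 TPM or more, Mpo and S100a9 (2.31 and 0.60) were over 1.5-fold higher in pool 1, where 1.63% of all genes were. Their part in the differences of Cx3cr1 and Tyrobp between the pools was not tested.

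Megakaryocyte and platelet markers (5 of 6 detected; sum 84.5 and 85.4 TPM) included Pf4, which macrophages of the yolk sac also make, Ppbp (16.2 and 14.3) and Gp1bb (8.24 and 8.52). All 6 erythroid markers were detected, from Hbb-y (7661 and 7091), Hba-x (2336 and 2382) and Alas2 (40.4 and 33.4) to Gata1 (2.94 and 3.40). Endothelial markers (6 of 7) bear on Mrc1 and Stab1, which some vessels share: Cldn5 (23.6 and 17.4), Emcn (20.1 and 19.2) and Kdr (18.7 and 13.7) were highest, and Stab2, which sinusoidal vessels make together with Mrc1, was at 0.15 and 0.18. Neuron and progenitor markers were all detected, Vim (1053 and 1018), Tubb3 (762 and 654) and Stmn2 (340 and 302) highest and Sox2 (25.2 and 15.4) lowest. None of these 4 lists held a gene that averaged 1 TPM or more and was over 1.5-fold apart.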

How the data were processed

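Total RNA from 2 pools of hindbrains was measured. Per the labels, the libraries are biological replicates of 1 group, RNA was extracted with the mirVana kit and reads were assigned on mm10; the readme gives M4 as annotation. Aligner, quantification tool and strand setting: not given in the sources used here. Reads shared by genes on opposite strands could therefore fall to either. For each gene and each transcript the authors deposited an expected count (an estimate that need not be whole), TPM, FPKM and an interval for TPM, of unknown confidence level. The transcript tables also hold an isoform percent, deposited by the authors.

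Symbols, biotypes and coordinates came from GENCODE vM21 on GRCm38, the same build as mm10, matched on Ensembl identifiers without versions. Of 43346 genes 42462 matched, all 10 members among them. Depth was 45340440 and 41261544 expected counts. The ratio between pools was taken on log2(TPM + 1), pool 2 minus pool 1, less the median of that difference over genes that averaged 1 TPM or more. With 1 library per pool no test was run. Count ratios carry exact (Clopper-Pearson) 95% intervals, which cover counting error only. Alternatives were a pseudocount of 0.1, FPKM, TPM rescaled over protein-coding nuclear genes, other thresholds, TMM and DESeq2 scaling of rounded expected counts, an uncentred ratio, and each library alone. Tools were R 4.3.3 with edgeR 4.0.16 and DESeq2 1.42.0, and Python 3.11.15 with pandas 2.3.3, SciPy 1.17.1, NumPy 2.4.6 and Matplotlib 3.10.9. The ratio step was tested on simulated data, and the share of changed genes it had to recover was lowered, to 85%, after the initial run missed a stricter mark.

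The members and the 16 further gene lists were chosen with earlier results of these data known. From each list the text names the 3 genes with the highest mean TPM, the 1 with the lowest, and any past 1.5-fold that averaged 5 TPM or more. A gene that this rule names is not reported here. Other genes named, the gene pairs set in ratio, the motifs, the promoters printed, the count intervals and the scaling of the deposited intervals were chosen after values were seen.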

Additional observations from a re-analysis of the deposited data

How the results depend on the processing

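The summed level of the 10 genes was 131 with TPM rescaled over protein-coding nuclear genes and 61.3 as FPKM, which are other scales of the same data. The share of C1q was 37.2% in expected counts with no length scaling, where the long transcripts of Csf1r and Mrc1 weigh more. At a TPM of at least 5, 5 of the 10 genes were detected. The count of genes past 1.5-fold was 0 with no filter on low values, with no centring on the median gene and at 2-fold, since Cx3cr1 lies near the threshold. It was 1 with a pseudocount of 0.1, TMM and DESeq2 scaling. Of 48 alternative values 41 were counted as the same as the reported value and 7 as moved. The moved ones were the sums of 131 and 61.3, the C1q share of 37.2%, the 5 genes detected and the counts of 0 past 1.5-fold. The median ratio was -0.03 without centring, so its sign follows the centring. Without centring the larger spike-in share of pool 2 stays in the ratio. With either library alone the summed TPM was 91.0 to 93.0, the C1q share 54.6% to 55.8% and the share of the transcript with the highest mean TPM 35.3% to 46.1% for Aif1 (Aif1-205, which led in neither pool alone), 91.2% to 100% for Csf1r, 64.1% to 73.8% for Cx3cr1, 90.7% to 96.6% for Mrc1, 78.2% to 93.5% for P2ry12 and 62.9% to 75.9% for Trem2. The interval comparison without scaling was chosen after seeing the data. Depth limits Trem2 and Aif1, with under 100 reads in each library. No paired analysis was possible because both libraries belong to 1 group.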

Other observations

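Genes of phagocytosis and the lysosome, the machinery by which macrophages take up and digest material, had a median of 48.8 ± 5.25 TPM (n = 2), with 14 of 15 detected. Lamp1 (212 and 177 TPM), Ctsd (152 and 117) and Ctsl (83.7 and 77.5) were highest, and most cells make them. Gpnmb, a gene of macrophages loaded with lipid, was lowest (0.70 and 0.40 TPM). Axl and Mertk, receptors for the bridging ligand Gas6, stood at 11.0 and 12.2 TPM and at 3.78 and 3.04 TPM. Spp1, a gene of phagocytic microglia that other cells also make, stood at 14.6 and 13.5 TPM.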
